A study of Mus musculus with 20 samples.

Results

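A panel of 10 genes of cellular senescence and of PML nuclear bodies was read from liver RNA-seq of mice in which hepatocytes received Cas9 and a guide RNA against Hira. The members were Cdkn2a, Cdkn2b, Cdkn2c, Cdkn1b, Rb1, Lmnb1, Hmga1, Pml, Sp100 and Glb1, taken by an exact match of the gene name in the count table. All 10 were among the 55421 genes of the table and all 10 passed the filter of at least 10 counts over the 20 libraries, which left 22867 genes for testing. Every group consisted of wildtype C57BL/6 mice, labelled female, that were injected retro-orbitally at 6 months of age with an AAV8 vector. In the vector the hepatocyte-specific Tbg promoter drove saCAS9 and a U6 promoter drove the guide. The control guide targeted Rosa26, a safe-harbour locus, and the other guide targeted HIRA, the chaperone that deposits histone H3.3 outside DNA replication. Livers were taken 3 weeks or 6 months after injection, giving 4 groups (Rosa26 3 weeks, HIRA 3 weeks, Rosa26 6 months and HIRA 6 months) of 5 libraries each. The controls therefore also carried Cas9 and a guide, and only hepatocytes were edited while whole liver was sequenced.

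Senescence is a lasting growth arrest that stressed or damaged cells enter. It is held by the RB pathway, in which INK4 and CIP/KIP proteins block cyclin-dependent kinases so that RB stays active and silences E2F target genes. Senescent nuclei are known for loss of lamin B1, for HMGA proteins bound to compacted chromatin and for enlarged PML bodies, where HIRA itself gathers before heterochromatin foci form. Senescent cells also carry high lysosomal beta-galactosidase activity, the product of Glb1. In liver, Cdkn2a RNA is scarce in young animals.

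Cdkn2a (ENSMUSG00000044303.6, chr4:89274471-89294653, minus strand, mm10) makes a pair of unrelated proteins, and a gene-level count adds them together. The transcript Cdkn2a-201 encodes the CDK4/6 inhibitor p16INK4A in 168 codons, and Cdkn2a-202 encodes ARF, which restrains MDM2, in 169 codons. Each has its own first exon, at chr4:89281986-89282192 and at chr4:89294334-89294653, and both splice to the second exon at chr4:89276645-89276985. The first exon holds 126 coding bases in Cdkn2a-201, a whole number of codons, and 190 in Cdkn2a-202, which leaves 1 base over, so the shared exon is read in different frames. The junctions below come from the GENCODE M21 transcripts, with the end of exon 1 in lower case and the start of the shared exon 2 in capitals. They are shown because the transcripts differ in sequence up to this junction and share exon 2 after it, and the deposited gene-level counts do not tell them apart.
Cdkn2a-201 (p16INK4A) junction: cgtaccccgattcagGTGATGATGATGGGC
Cdkn2a-202 (ARF) junction: ggaatcctggaccagGTGATGATGATGGGC

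The transcripts also start from separate promoters. RefSeq windows of 250 bases upstream of a transcript start (GRCm38.p6, the patch release of the mm10 build) were found for 8 of the 10 members, 12 windows in all. Both Cdkn2a windows are printed here 5′ to 3′ on the minus strand because Cdkn2a was the member with the largest difference between time points. The first lies at chr4:89282193-89282442 and the second, cut back to the 216 bases outside any annotated exon of the gene, at chr4:89294654-89294869. Capitals mark a match to an E2F motif.
Cdkn2a p16INK4A promoter: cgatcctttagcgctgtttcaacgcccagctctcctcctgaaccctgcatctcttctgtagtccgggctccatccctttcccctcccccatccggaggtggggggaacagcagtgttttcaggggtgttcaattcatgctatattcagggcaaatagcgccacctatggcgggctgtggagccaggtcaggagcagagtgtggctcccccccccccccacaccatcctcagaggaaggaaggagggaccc
Cdkn2a ARF promoter: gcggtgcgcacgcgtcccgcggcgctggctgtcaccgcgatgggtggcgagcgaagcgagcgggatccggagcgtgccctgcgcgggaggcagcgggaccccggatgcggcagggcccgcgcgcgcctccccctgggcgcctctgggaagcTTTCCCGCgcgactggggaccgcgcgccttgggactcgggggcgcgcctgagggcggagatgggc
The E2F letters searched were TTTGGCGC, TTTCCCGC, TTTGCCGC and TTTCGCGC on both strands, and 1.86% of 32851 promoter windows of this length hold at least one of them. The ARF window holds TTTCCCGC, beginning 99 bases before the RefSeq start, and it was the only member window with an E2F match. The cell-cycle homology letters TTTGAA, present in 16.0% of windows, matched in the Cdkn2b window alone. The interferon letters GAAA, any 2 bases, GAAA (2.98% of windows) and the STAT letters TTCNNNGAA (7.02%) matched in none of the 12 windows, those of Pml and Sp100 included. Matches describe letters only.

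Libraries held between 19916430 and 24079736 counted reads. One library, HIRA 6 months replicate 5, held 9 Xist counts and 2041 counts over 4 Y-linked genes, whereas the other 19 held 6286 to 8436 and 0 to 13, so it went against its female label. The study's text calls the mice of this time course male in one place and female in another. Several member differences that include this library are given below also without it, and leaving it out added no member to those called. Hira itself was read at 128 to 171 counts in Rosa26 and 87 to 127 in HIRA at 3 weeks (log2 fold change -0.48 ± 0.14 SE, edgeR adjusted p = 0.197). At 6 months it was read at 105 to 157 and 109 to 136 counts (-0.10 ± 0.14, edgeR adjusted p = 0.794). A gene-level count does not read the edit, so it is no check of the knockout. The 6 hepatocyte markers, Alb among them, were present in every library and summed to 81700 to 162300 CPM (read counts scaled to library size, with edgeR's TMM factors). Of the 6 Kupffer cell and macrophage markers (Clec4f, Vsig4, Adgre1, Cd68, Csf1r and Marco) all 6 were present in every library, at summed levels given below.

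Per kilobase of annotated exon, the 10 genes spanned a wide range of levels. Cdkn1b, which encodes the CDK inhibitor p27, stood highest at 7.57 ± 0.723 CPM per kilobase (SD, 20 libraries). Glb1 followed at 6.56 ± 0.921, Pml at 5.86 ± 0.686 and Hmga1 at 5.18 ± 0.979 CPM per kilobase. For each neighbouring pair in this order the ranges of mean ± SD overlapped. Cdkn2c stood at 3.12 ± 0.83, Sp100 at 2.51 ± 0.713 and Lmnb1 at 2.16 ± 0.49 CPM per kilobase, again with overlapping spreads. Rb1 stood at 1.16 ± 0.0993, below Lmnb1 by more than their spreads. Cdkn2a at 0.464 ± 0.556 and Cdkn2b at 0.335 ± 0.124 CPM per kilobase were lowest and were not separated. The INK4 genes of the chromosome 4 locus were thus the scarcest members, with 242 and 202 reads over all 20 libraries together.

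**Figure D1:**
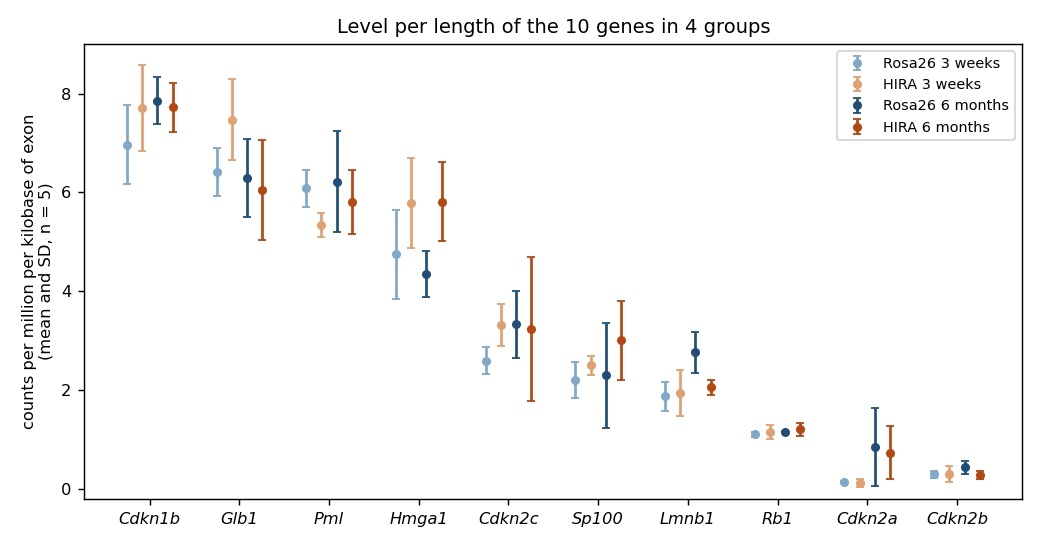
Level per length of each gene: the vertical axis gives CPM per kilobase of exon, points are group means and bars 1 SD over 5 libraries, and the genes are ordered by their mean over all 20 libraries. Cdkn1b lies highest at 7.57 and Cdkn2b lowest at 0.335, and Cdkn2a is spread wide in both 6-month groups.

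No member was called in any of the 4 comparisons of single groups or their interaction at an edgeR adjusted p under 0.05. Between guides at 3 weeks that was 0 of 10 members, where 0.197% of all tested genes were called, and at 6 months 0 of 10, where 1.31% were. Between time points it was 0 of 10 within Rosa26, where 0.324% were called, and 0 of 10 within HIRA, where 0.0656% were. For the interaction, which asks whether the time difference differs between guides, 0 of 10 members and 0% of genes were called.
DESeq2 called 2 members across time in Rosa26 (Cdkn2a and Lmnb1), 1 in HIRA (Cdkn2a) and 0 in the other 3 comparisons, and limma on log2(FPKM + 1) called 0 in all 5.
At an unadjusted p under 0.05, 1 member passed between guides at 3 weeks (Hmga1, higher), where 8.87% of all genes passed. At 6 months 2 passed (Lmnb1 lower and Hmga1 higher), against 15.5% of all genes. Without HIRA 6 months replicate 5, 4 passed there (Cdkn2b and Lmnb1 lower, Hmga1 and Sp100 higher), against 17.7% of all genes. Across time 2 passed in Rosa26 (Cdkn2a and Lmnb1, both higher), against 12.8%, and 2 in HIRA (Cdkn2a higher and Glb1 lower), against 8.95%. In the interaction 1 passed (Lmnb1), against 6.62%, and 0 without that library, against 7.64%. With all libraries these shares of 1 or 2 in 10 lie close to the background, and the values of the genes concerned are given one by one below. The median log2 fold change of the 10 was 0.10 between guides at 3 weeks, -0.05 at 6 months, 0.12 across time in Rosa26 and 0.03 across time in HIRA, beside medians of -0.01, 0.03, 0.00 and 0.03 over all tested genes.

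**Figure D2:**
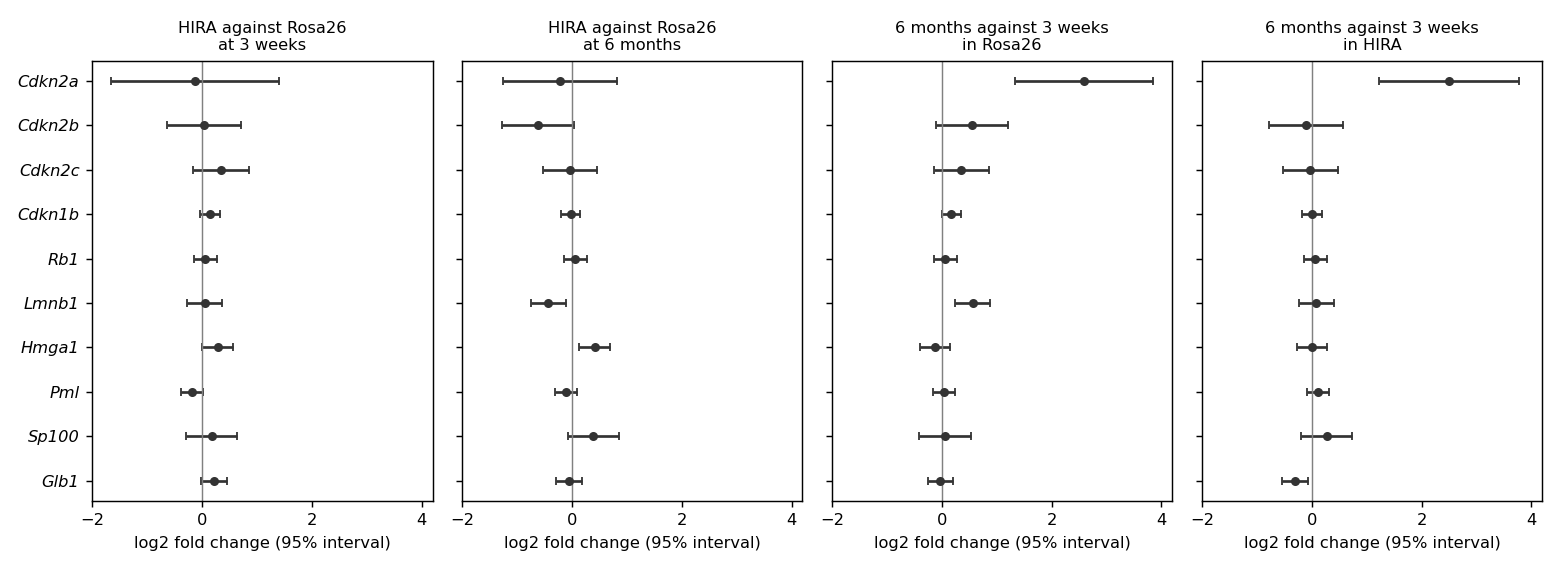
Log2 fold changes of the 10 genes from edgeR in the 4 comparisons between single groups, with bars for the 95% interval and a grey line at no difference. Cdkn2a lies at 2.59 and 2.50 in the time comparisons, while the other genes lie within 0.61 of 0 in every panel.

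Cdkn2a was low in every 3-week library and higher in every 6-month library. The reads counted in the 5 libraries were 3, 3, 3, 4 and 4 in Rosa26 3 weeks and 3, 0, 4, 6 and 3 in HIRA 3 weeks. They were 9, 14, 61, 15 and 14 in Rosa26 6 months and 19, 10, 22, 39 and 6 in HIRA 6 months. On the CPM scale the 3-week libraries held 0 to 0.263 and the 6-month libraries 0.305 to 2.62, so the time points did not overlap within either guide. The share of all genes with groups that do not overlap was 3.50% in Rosa26, in either direction, and 1.47% in HIRA. The library at 0 counts allows up to 3 counts, or 0.141 CPM, which lies among the values of its group. Summed over 5 libraries the reads were 17 (95% Poisson interval 9.9 to 27.2) and 16 (9.15 to 26) at 3 weeks, and 113 (93.1 to 136) and 96 (77.8 to 117) at 6 months, intervals that cover counting error only. In whole liver, more cells with the RNA and more RNA per cell cannot be told apart.

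**Figure D3:**
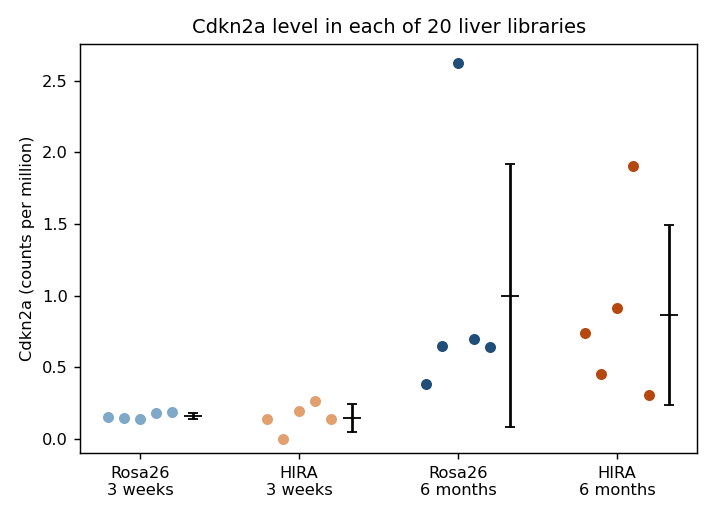
Cdkn2a level in CPM in each library, with 1 point per library and the group mean and SD beside the points. All 10 libraries at 3 weeks lie at or under 0.263 CPM, and the highest at 6 months, Rosa26 replicate 3, lies at 2.62 CPM.

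The log2 fold change of Cdkn2a from 3 weeks to 6 months was 2.59 ± 0.60 SE in Rosa26, 6.02-fold, with an edgeR adjusted p of 0.0591, just outside the threshold. In HIRA it was 2.50 ± 0.61 with an edgeR adjusted p of 0.135. The same counts in DESeq2 gave adjusted p-values of 0.00473 and 0.0178, so both calls depend on the tool. When the time difference was averaged over both guides, a contrast added after these values were seen, Cdkn2a rose by 2.54 ± 0.43 on the log2 scale (5.83-fold, 95% interval 3.14 to 10.8, higher in 10 of 10 libraries). The edgeR adjusted p of that contrast was 0.00567, and 1.36% of all genes were called in it. It was the only member called there, while 3 members (Cdkn2a and Lmnb1 higher, Glb1 lower) passed without adjustment against 14.8% of genes. Between guides Cdkn2a differed by -0.12 ± 0.74 at 3 weeks and -0.21 ± 0.50 at 6 months (edgeR adjusted p = 0.989 and 0.896). The lowest HIRA library at 6 months, 0.305 CPM, was replicate 5, the library against its label. The highest Rosa26 library at that time, 2.62 CPM, was replicate 3, and the guide difference without either is not given here. With all libraries the 95% interval at 6 months was -1.25 to 0.82, so a guide difference within that range was not excluded. The interval reflects the spread between libraries as well as depth. Mice at 6 months were also older than those at 3 weeks, so age and time since the vector cannot be told apart.

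Cdkn2a did not stand alone in the libraries where it was highest. In Rosa26 6 months replicate 3, with 2.62 CPM of Cdkn2a, the 6 macrophage markers summed to 896.5 CPM, while in the other 4 libraries of that group they summed to 239, 131.8, 145.2 and 141.2 CPM. The hepatocyte markers were lowest of all 20 libraries in that replicate, at 81700 CPM. In HIRA 6 months replicate 4, with 1.91 CPM of Cdkn2a, they summed to 557.6 CPM. In HIRA 6 months replicate 5, with the lowest Cdkn2a of its group at 0.305 CPM, they summed to 82 CPM. In Rosa26 6 months replicate 1, with the lowest Cdkn2a of its group at 0.384 CPM, they summed to 239 CPM, the second highest sum of that group. The highest library of each 6-month group was thus the same for both measures, the order of the others was not, and the part of the one in the other was not tested. In the 10 libraries at 3 weeks, all low in Cdkn2a, the marker sum was 213.4 to 364 CPM. That was above 3 of the 5 Rosa26 6 months libraries, in which Cdkn2a was 0.642 to 0.695 CPM. The sum weighs abundant markers most. Marker by marker, 5 of 6 had positive time differences in Rosa26 (median 0.33) and 5 of 6 in HIRA (median 0.17), beside 0.00 and 0.03 over all genes. Without adjustment 0 passed higher and 1 lower in Rosa26, against 12.8% of all genes, and 0 in HIRA, against 8.95%.
Without Rosa26 6 months replicate 3, the time difference of Cdkn2a in Rosa26 was 1.84 on the log2 scale (edgeR adjusted p = 0.172). Leaving out both libraries with the highest macrophage sums, an alternative added after the values were seen, it was 1.84 in Rosa26, 1.99 in HIRA and 1.92 averaged over both guides (edgeR adjusted p = 0.107, 0.11 and 0.00893 in that order). The averaged call therefore held without them, at a smaller fold. Lymphocyte markers had positive differences in the averaged time contrast, where 14.8% of all genes passed without adjustment. There 4 of 4 B cell markers (median 0.56) and 3 of 5 T and NK cell markers (median 0.75) passed. Of the macrophage markers 5 of 6 were positive (median 0.21), and 1 passed, lower. Endothelial markers went the other way (median -0.35), with 2 of 5 passing, lower. Of the hepatocyte markers 5 of 6 were negative (median -0.16) and 0 passed. No gene of these lists was called by edgeR in that contrast. The part of these cell types in the Cdkn2a difference was not tested. Without HIRA 6 months replicate 5, the library against its label, the difference in HIRA was 2.70 (edgeR adjusted p = 0.080) and the averaged difference 2.65 (0.00215).

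**Figure D4:**
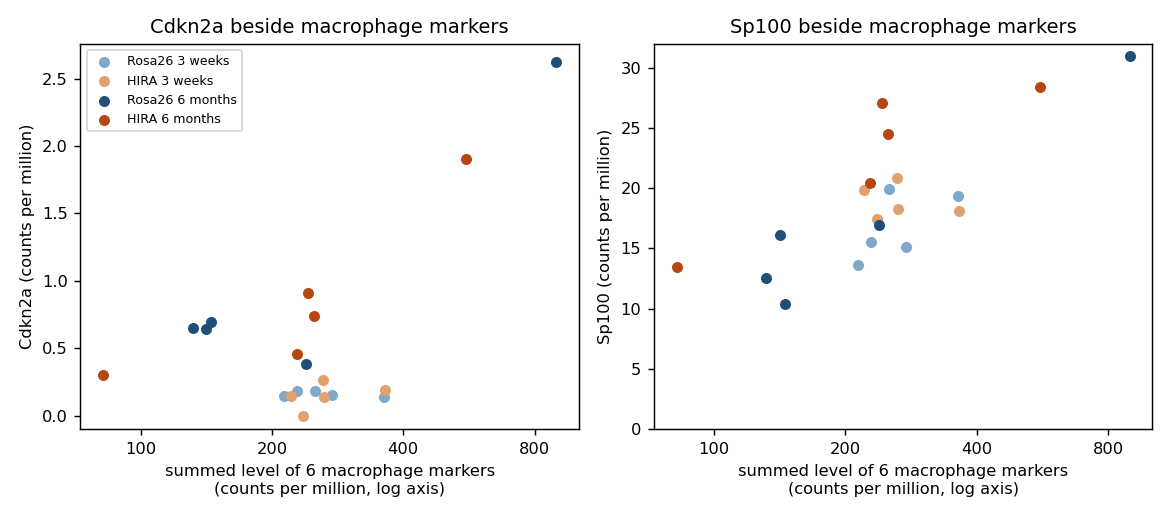
Cdkn2a (left) and Sp100 (right) in CPM against the summed CPM of 6 macrophage markers on a log axis, with 1 point per library coloured by group. The pair of libraries at marker sums of 557.6 and 896.5 CPM holds the highest values of both genes, while the 3-week libraries, at 213.4 to 364 CPM, all lie at or under 0.263 CPM of Cdkn2a.

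Cdkn2b, the neighbour of Cdkn2a on chromosome 4 (chr4:89306299-89311039), encodes the INK4 protein p15. It was read at 0.274 to 0.932 CPM with no group apart from the others. Group means were 0.418 ± 0.0994 CPM in Rosa26 3 weeks, 0.431 ± 0.222 in HIRA 3 weeks, 0.613 ± 0.185 in Rosa26 6 months and 0.403 ± 0.109 in HIRA 6 months (SD, n = 5). The widest of its differences between single groups was -0.61 ± 0.31 SE between guides at 6 months (edgeR adjusted p = 0.36), where the groups overlapped, and -0.75 without HIRA 6 months replicate 5 (0.241). The time difference of Cdkn2b in Rosa26 was 0.54 with a 95% interval of -0.11 to 1.20, below the lower bound of 1.34 for Cdkn2a in the same fit.
Cdkn2c, the INK4 gene of p18 (chr4:109660876-109667189), stood at 6.99 ± 0.76 CPM in Rosa26 3 weeks and 8.89 ± 1.14 in HIRA 3 weeks. At 6 months it stood at 8.95 ± 1.81 in Rosa26 and 8.71 ± 3.89 in HIRA. The wide spread of the last group came from its extremes, 13.9 CPM in replicate 3 and 2.95 CPM in replicate 5, the library against its label and the lowest of all 20. No difference of Cdkn2c exceeded 0.36 on the log2 scale between single groups (edgeR adjusted p from 0.589 to 0.992). Without replicate 5 the differences of Cdkn2c in which HIRA 6 months enters turned from -0.03 to 0.18 between guides and from -0.03 to 0.19 across time (edgeR adjusted p = 0.601 and 0.735).
Cdkn1b (chr6:134920401-134925513) was read evenly at 27.7 to 39.6 CPM. Its largest difference was 0.17 ± 0.09 across time in Rosa26 (edgeR adjusted p = 0.412). Intervals for Cdkn1b between guides were -0.03 to 0.33 at 3 weeks and -0.20 to 0.15 at 6 months, the narrowest among the inhibitors.
Rb1 (chr14:73183673-73325822), the pocket protein on which these inhibitors act, was the least variable member at 6.96 ± 0.597 CPM over the 20 libraries. All 4 of its differences between single groups rounded to 0.06 on the log2 scale, with 95% intervals no wider than -0.15 to 0.27. Rb1 shares 488 exonic bases with Rcbtb2 and 408 with Lpar6 on the opposite strand, and whether the counting kept strands apart is not given in the sources used here.

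Lmnb1, which encodes lamin B1 of the nuclear envelope (chr18:56707813-56753424), was highest in Rosa26 6 months. Its libraries held 7.55, 6.48, 9.68, 8.76 and 8.58 CPM there and 5.87, 6.42, 6.39, 6.41 and 5.39 CPM in HIRA 6 months. Every HIRA library lay below every Rosa26 library at this time, although 6.48 and 6.42 CPM nearly met. At 3 weeks the values were 5.22, 6.14, 5.04, 4.69 and 6.79 CPM in Rosa26 and 5.67, 4.97, 4.21, 7.92 and 6.01 CPM in HIRA, with full overlap. The guide difference of Lmnb1 was -0.43 ± 0.15 SE at 6 months (edgeR adjusted p = 0.162), and 3.15% of all genes had groups that did not overlap in that comparison. It was 0.05 ± 0.15 at 3 weeks (edgeR adjusted p = 0.974), where no member and 2.69% of all genes had groups apart. Across time Lmnb1 differed by 0.56 ± 0.15 in Rosa26 (edgeR adjusted p = 0.107, DESeq2 adjusted p = 0.0189) and by 0.08 ± 0.15 in HIRA (edgeR adjusted p = 0.926). The test of the difference between those time differences gave -0.48 ± 0.21 (edgeR adjusted p = 0.737), so the guides were not shown to differ in it. The highest Lmnb1 value was again in Rosa26 6 months replicate 3. Without that library the guide difference was -0.36 and the time difference in Rosa26 0.49, and without HIRA 6 months replicate 5 the guide difference was -0.39 (edgeR adjusted p = 0.239, 0.215 and 0.203).
Hmga1 (chr17:27556497-27563674), a chromatin architectural protein of the minor groove, had the higher group mean with the HIRA guide at both times. At 6 months its libraries held 10.4, 12.7, 11.2, 12.6 and 14.8 CPM in HIRA and 9.18, 10.2, 10.1, 7.78 and 8.95 CPM in Rosa26, without overlap. The highest of them, 14.8 CPM, was HIRA 6 months replicate 5, the library against its label. At 3 weeks they held 13.5, 11.9, 11.6, 14.8 and 9.73 CPM in HIRA and 13.3, 8.44, 9.89, 9.92 and 8.89 CPM in Rosa26, where replicates 1, 3 and 4 of Rosa26 lay within the HIRA range. The log2 fold change of Hmga1 was 0.41 ± 0.13 SE at 6 months (edgeR adjusted p = 0.129) and 0.29 ± 0.13 at 3 weeks (0.547). Averaged over both times, a contrast added after these values were seen, Hmga1 rose by 0.35 ± 0.09 (1.28-fold, 95% interval 1.11 to 1.46, edgeR adjusted p = 0.0476). In that contrast 1 of 10 members and 2.85% of all genes were called, and 2 members (Hmga1 higher, Pml lower) against 16.6% of genes passed without adjustment. The call sits at the threshold: it was lost with DESeq2 size factors (edgeR adjusted p = 0.0555), without the 2 libraries of the highest macrophage sums (0.0674) and without any of 15 single libraries out of 20, HIRA 6 months replicate 5 among them (0.0637). It held without Rosa26 3 weeks replicate 1, HIRA 3 weeks replicate 5, Rosa26 6 months replicate 3, HIRA 6 months replicate 1 or HIRA 6 months replicate 3. The size hardly moved, from 0.31 to 0.41 over the libraries left out one at a time. Across time Hmga1 differed by -0.12 in Rosa26 and 0.00 in HIRA (edgeR adjusted p = 0.77 and 0.992). A near-identical gene copy, Hmga1b on chromosome 11, matches Hmga1 at 99.8% over 1602 bases and drew 69 reads against 4783, so reads could be split between them. The opposite-strand gene AI413582 shares 102 exonic bases with Hmga1 and drew 1295 reads.

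**Figure D5:**
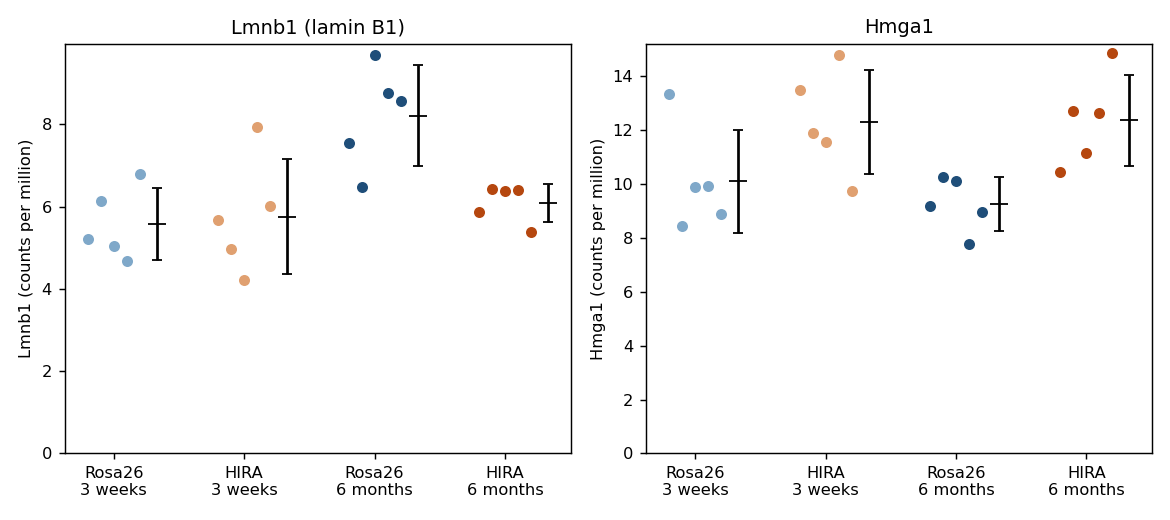
Lmnb1 (left) and Hmga1 (right) in CPM in each library, with the group mean and SD beside the points. At 6 months the HIRA libraries lie below all Rosa26 libraries for Lmnb1 (5.39 to 6.42 against 6.48 to 9.68 CPM) and above them for Hmga1 (10.4 to 14.8 against 7.78 to 10.2 CPM).

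Pml (chr9:58218076-58249786), the scaffold of the nuclear bodies in which HIRA gathers, was among the most abundant members per length. It stood at 33.8 ± 2.05 CPM in Rosa26 3 weeks and 29.7 ± 1.38 in HIRA 3 weeks, and at 34.6 ± 5.73 and 32.3 ± 3.6 CPM at 6 months. The guide difference of Pml was -0.19 ± 0.10 SE at 3 weeks and -0.10 ± 0.10 at 6 months (edgeR adjusted p = 0.605 and 0.679), -0.14 ± 0.07 averaged over both (0.291). Time differences were 0.03 in Rosa26 and 0.12 in HIRA, each with an upper 95% bound under 0.32. The highest values at 6 months in Rosa26 were 41.5 CPM in replicate 4 and 40 CPM in replicate 3.
Sp100 (chr1:85649988-85709998), the other founding component of the bodies, was far more variable, from 10.4 to 30.9 CPM. Rosa26 6 months held 16.9, 12.5, 30.9, 10.4 and 16.1 CPM and HIRA 6 months 24.5, 20.4, 27, 28.4 and 13.5 CPM. At 3 weeks it held 13.6 to 19.9 CPM in Rosa26 and 17.4 to 20.9 CPM in HIRA. Its highest values stood in the libraries with the highest macrophage sums, Rosa26 6 months replicate 3 and HIRA 6 months replicate 4, and a low value of 13.5 CPM in HIRA 6 months replicate 5 with the lowest sum. The guide difference of Sp100 was 0.39 ± 0.22 SE at 6 months (edgeR adjusted p = 0.428), 0.53 without HIRA 6 months replicate 5 (0.192) and 0.60 without both high libraries (0.102), with 0.18 ± 0.22 at 3 weeks (0.907). The part of macrophage RNA in Sp100 was not tested. Sp100 shares stretches of 332 to 399 bases at 98.3% to 99.1% identity with 4 pseudogenes on chromosome 1, which drew 148 reads at most against 8338. Stretches of 100 to 128 bases at 95% identity or more lie in further genes, some of them more abundant than Sp100, such as Aspscr1 (125 bases, 42468 reads), so its counts are uncertain to that extent.
Glb1 (chr9:114401076-114474898), the lysosomal beta-galactosidase behind the classical senescence stain, stood at 22.5 ± 2.45 CPM in HIRA 3 weeks and at 18.2 ± 3.04 CPM in HIRA 6 months. In Rosa26 it stood at 19.3 ± 1.45 and 18.9 ± 2.38 CPM. The time difference of Glb1 was -0.30 ± 0.11 SE in HIRA (edgeR adjusted p = 0.404) and -0.03 ± 0.11 in Rosa26 (0.952), and the test of their difference gave -0.28 ± 0.16 (0.806). The lowest value of all, 13.9 CPM, was in HIRA 6 months replicate 5, without which the time difference of Glb1 in HIRA was -0.22 (edgeR adjusted p = 0.479). Tmppe on the same strand shares 165 exonic bases with Glb1.

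The neighbouring genes of each pathway were read from lists. Of 23 other RB pathway genes, 1 was called in a comparison of single groups and fell across time in Rosa26, against 0.324% of all genes: Cdkn1a, the CIP/KIP inhibitor p21. It held 41.4 to 120.6 CPM in Rosa26 3 weeks and 3.5 to 9.34 CPM in Rosa26 6 months, which was -3.61 ± 0.45 SE on the log2 scale (edgeR adjusted p = 0.00196). In HIRA it held 14.8 to 64.3 CPM and then 3.67 to 13.1 CPM (-1.54 ± 0.42, edgeR adjusted p = 0.2). Cdkn1a was thus lower at the time at which Cdkn2a was higher, in every library of both guides. The guide difference of Cdkn1a was -1.25 ± 0.40 SE at 3 weeks and 0.82 ± 0.44 at 6 months (edgeR adjusted p = 0.266 and 0.383). The test of the difference between its time differences gave 2.07 ± 0.59 (edgeR adjusted p = 0.614), so the guides were not shown to differ in it. In the time contrast averaged over both guides 3 of the 23 were called, against 1.36% of all genes: Cdkn1a (-2.58) and the ARF target Mdm2 (-0.37) fell, and the cyclin Ccnd3 (0.18) rose (edgeR adjusted p = 0.000245, 0.0393 and 0.0494). The calls of Mdm2 and Ccnd3 were each lost without any of 16 single libraries out of 20, that of Ccnd3 without HIRA 6 months replicate 5 as well (edgeR adjusted p = 0.066), and that of Cdkn1a held whichever library was left out. The list's median in that contrast was 0.01, beside 0.02 over all genes.
Of 15 polycomb genes known to silence the Ink4a/Arf locus, 0 were called by edgeR in the 4 comparisons of single groups or their interaction, where 2 to 6 passed without adjustment. The 6 were between guides at 6 months, 5 higher and 1 lower, against 15.5% of all genes. In the averaged time contrast 0 of 15 were called and 5 passed without adjustment, against 14.8% of all genes, and Cbx2 differed by 0.38 (edgeR adjusted p = 0.0896). Averaged over both times, 2 of the 15 were called, both higher with the HIRA guide, against 2.85% of all genes. Of these, Bmi1 rose by 0.27 (edgeR adjusted p = 0.0408), and its call was lost without any of 14 single libraries out of 20. The median of the 15 there was 0.06 beside 0.02. Of 13 lamina and heterochromatin genes, edgeR called 0 in any contrast. At most 1 passed without adjustment, in contrasts where 14.8% to 16.6% of all genes did. Lmnb2, the other B-type lamin, differed by 0.32 between guides at 6 months (edgeR adjusted p = 0.206), against -0.43 for Lmnb1.
Of 16 partners of PML bodies edgeR called 0 in any contrast. At most 2 passed without adjustment, in contrasts where 8.95% to 16.6% of all genes did. The closest to a call was the helicase gene Blm, at 0.99 in the averaged time contrast (edgeR adjusted p = 0.0706). Of 20 interferon-induced genes, the class to which Pml and Sp100 belong, edgeR called 0 in any contrast. Without adjustment 5 were lower between guides at 3 weeks, against 8.87% of all genes in either direction, and across time in Rosa26 7 were lower and 1 higher, against 12.8%. Their median was -0.29 between guides at 3 weeks, with 18 of 20 negative, and -0.34 across time in Rosa26, with 16 of 20 negative, beside -0.01 and 0.00 over all genes. These comparisons share the Rosa26 3 weeks libraries, of which replicate 3 had the highest sum of the 20 genes, 1101 CPM. The median was 0.06 between guides at 6 months, with 9 of 20 negative. Across time in HIRA it was 0.02, with 8 of 20 negative and 0 passing without adjustment, against 8.95% of all genes. In the interaction the median was 0.39, with 16 of 20 positive and 0 called, and 2 passed without adjustment, against 6.62% of all genes. Pml and Sp100 differed by -0.19 and 0.18 between guides at 3 weeks and by 0.03 and 0.06 across time in Rosa26.
Of 17 lysosomal genes 1 was called in a comparison of single groups, between guides at 6 months, where 1.31% of all genes were called. Without adjustment 3 were higher and 2 lower there, against 15.5% of all genes. Gla, the alpha-galactosidase, fell with the HIRA guide at 6 months, from 7.07 to 9.51 CPM in Rosa26 to 5.03 to 6.69 CPM in HIRA (-0.52 ± 0.11, edgeR adjusted p = 0.03), a call lost without Rosa26 6 months replicate 1, 3 or 4 or HIRA 6 months replicate 1 or 3 (edgeR adjusted p up to 0.0828). Averaged over both times Gla fell by 0.39 and Gusb, the beta-glucuronidase, rose by 0.29 (edgeR adjusted p = 0.0106 and 0.0192). Glb1 differed by 0.08 in that contrast (edgeR adjusted p = 0.657).
Of 26 secreted senescence factors edgeR called 0 between single groups. Without adjustment 2 passed between guides at 3 weeks and 3 at 6 months, against 8.87% and 15.5% of all genes, and 5 passed across time in Rosa26 and 6 in HIRA, against 12.8% and 8.95%. In the averaged time contrast 2 of 26 were called, against 1.36% of all genes, and 7 passed without adjustment, against 14.8%. The called genes were the macrophage elastase Mmp12 (2.77) and the IGF-binding protein Igfbp5 (1.15), both higher (edgeR adjusted p = 0.0259 and 0.0266). The list median was 0.24 there, beside 0.02 over all genes. It was 0.09 across time in Rosa26, with 16 of 26 positive, and 0.55 in HIRA, with 21 of 26, beside 0.00 and 0.03. In the interaction it was 0.09, and 0 passed without adjustment, against 6.62% of all genes. Mmp12 reached 9.25 CPM in Rosa26 6 months replicate 3 and 10.95 CPM in HIRA 6 months replicate 3, beside group medians of 1.02 and 1.33 CPM. Its call was lost without Rosa26 6 months replicate 3 (2.22, edgeR adjusted p = 0.0548), without replicate 4 of that group (0.0503) and without HIRA 3 weeks replicate 1 or 3 (0.0513 and 0.0531), and without HIRA 6 months replicate 3 its log2 fold change was 2.04. The call of Igfbp5 was lost without Rosa26 3 weeks replicate 4, HIRA 3 weeks replicate 3, Rosa26 6 months replicate 4 or HIRA 6 months replicate 4 (edgeR adjusted p = 0.0612, 0.0533, 0.0506 and 0.0546). Averaged over both times Lcn2 fell by 2.61 with the HIRA guide (edgeR adjusted p = 0.0172), where Rosa26 3 weeks ranged from 11.9 to 663.8 CPM, and without replicate 2 of that group Lcn2 fell by 1.52 (edgeR adjusted p = 0.0399). Of 15 proliferation genes edgeR called 0 in any contrast. At most 2 passed without adjustment, in the averaged time contrast, against 14.8% of all genes. The median of the 15 was -0.27 in the averaged time contrast and 0.28 in the averaged guide contrast, beside 0.02 and 0.02 over all genes.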

How the data were processed

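Liver polyA RNA had been sequenced as 20 directional libraries in 4 groups of 5. The authors aligned trimmed reads to mm10 with STAR and deposited whole-number counts per gene, the values tested here. They also deposited FPKM values, used only in an alternative. The labels name HTSeq and Cufflinks and the study's methods HOMER for counting, whose settings are not given in the sources used here. The table pairs identifiers with gene names.

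Counts were fitted with edgeR 4.0.16 (R 4.3.3; TMM scaling, quasi-likelihood test, two-sided, all 20 libraries in one model with a mean per group). Genes with at least 10 counts in all were kept and p-values were adjusted by Benjamini and Hochberg over all 22867, with calls at 0.05. The 4 comparisons of single groups and their interaction were planned, and contrasts averaged over guides or times were added after values had been seen. The members, lists, markers and motifs were chosen with earlier results of these data known. Levels per length used the union of GENCODE M21 exons, in which 98.5% of identifiers were found, and near copies were transcripts aligned by blastn at 95% identity over 100 bases. No label says that replicates come from separate animals beyond their numbers, so p-values measure the spread between these libraries. No libraries were identical, and in each of 40 pairs within a group the chi-square per gene was at least 15.1, far above counting noise.

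Genes named outside the members were Hira, Xist, 4 Y-linked genes (Ddx3y, Eif2s3y, Kdm5d and Uty), every list gene with an adjusted p under 0.05, up to 3 others per list and contrast with the smallest p, and the 3 genes most like each of the 3 members of largest spread. Of the genes this names, 2 are not reported here. Alternatives were DESeq2 1.42.0, its size factors in edgeR, no filter or at least 1 CPM in 5 libraries, only the groups compared, a replicate block, log2(FPKM + 1) in limma 3.58.1 with blanks as 0, an absolute log2 fold change over 1 as well, each library left out, and both libraries with the highest macrophage sums left out.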

Additional observations from a re-analysis of the deposited data

Results flagged for a closer look

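In 40 sets of 5 libraries (10 genes in 4 groups), 2 had a library far from the other 4 on the log2 CPM scale by Dixon's ratio of the gap to the range, with 0.71 as the critical value, and chance flags about 1 in 20. Cdkn2a in Rosa26 6 months had a ratio of 0.712, with 2.62 CPM in replicate 3 against 0.384 to 0.695 CPM in the others. Glb1 in HIRA 3 weeks had a ratio of 0.745, with 18.2 CPM in replicate 3 against 22.6 to 24.3 CPM in the others.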

How the results depend on the processing

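Counts of members called were 0 under every alternative run between guides at 3 weeks, between guides at 6 months and for the interaction, of 8 members with at least 1 CPM in 5 libraries and of 10 otherwise. Across time, DESeq2 called 2 members in Rosa26 and 1 in HIRA where edgeR called 0. In the averaged time contrast the single call, Cdkn2a, became 0 with at least 1 CPM in 5 libraries, where Cdkn2a was not tested, and 0 with log2(FPKM + 1) in limma (0.76, adjusted p = 0.114), a scale that shrinks differences of low genes. In the averaged guide contrast the single call, Hmga1, became 0 when an absolute log2 fold change over 1 was also asked, with DESeq2 size factors, without a low-count filter and without both libraries of the highest macrophage sums, and it ranged from 0 to 1 over libraries left out one at a time (Hmga1 adjusted p 0.0144 to 0.0987). The cause was not tested. Replicate numbers did not pair the samples: same-numbered libraries correlated at -0.31 to 0.33 after removal of group means, and 5 of 20 libraries were closest to their own number in another group. With a replicate block the count was 1 across time in Rosa26 (Cdkn2a, 2.46, edgeR adjusted p = 0.0407) and 0 in the averaged guide contrast, with the other counts as in the fit without it. For single members, 1424 values kept direction and call, 68 uncalled values changed sign, 4 gained and 20 lost a call, and none was reversed while called. Of the values of called list genes 227 kept the call, every one of Cdkn1a among them, and 79 lost it: Ccnd3 in 20 of 27, Mdm2 in 18 of 27, Bmi1 in 16 of 27 and Gla at 6 months in 8 of 18. Depth limits Cdkn2a at 3 weeks, where each library held 6 reads or fewer.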

Other observations

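Markers of other liver cell types varied between libraries as well. Rosa26 6 months replicate 3 also held the highest sum of 5 T and NK cell markers, 55.3 CPM, against 8.18 to 46.7 CPM in the other 19 libraries. Its neutrophil marker sum was 18.8 CPM, and the highest of these, 42.4 CPM, was in Rosa26 3 weeks replicate 3. Between guides at 3 weeks 4 of 4 neutrophil markers were lower with the HIRA guide and passed without adjustment (median -1.9), against 8.87% of all genes. Averaged over both times 3 of 4 passed, lower (median -1.3), against 16.6%. EdgeR called 0 of them in either contrast, and their part in the interferon-induced genes or Lcn2 was not tested. Stellate cell markers were highest in HIRA 6 months replicate 3 at 511.1 CPM, against 151 to 328.3 CPM in the others, and biliary markers were highest in that library too, at 153.1 CPM. B cell markers summed to 7.12 to 9.93 CPM in Rosa26 3 weeks, 11.2 to 18.8 CPM in HIRA 3 weeks, 8.06 to 22.6 CPM in Rosa26 6 months and 7.01 to 25.2 CPM in HIRA 6 months. Endothelial markers summed to 106 to 216.6 CPM over all libraries. HIRA 6 months replicate 5 had the lowest sums of the macrophage, biliary, T and NK, B and neutrophil lists, at 82, 46.8, 8.18, 7.01 and 1.58 CPM.

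The genes whose log2 CPM followed a member most closely over the 20 libraries were, for Cdkn2a, Tcf4 (likeness 0.84), Gm33699 (0.83) and Tnfsf10 (0.82). For Cdkn2c they were Prom1 (0.90) and Gm11695 (0.84), and for Cdkn2b Gm9895 (0.76), Zfp867 (0.75) and Birc3 (0.72). The likeness is Pearson's r, picked as the largest among genes averaging 1 CPM or more. The 20 libraries fall into groups of guide and time, so the values are a description.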
